A study of Mus musculus with 9 samples.

Results

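The mitotic spindle, kinetochore and cytokinesis genes described here are 42 genes chosen by name, and all 42 had a row among the 22161 genes of the deposited table. They were sorted by textbook role into 10 regulators, kinases and checkpoint genes, 8 kinetochore and passenger complex genes, 9 spindle motors and microtubule binders, 11 cytokinesis genes and 4 genes of chromosome structure. Poly(A) RNA was sequenced from kidneys of 9 C57BL/6 mice, 3 in each of 3 groups, at 10 weeks of age (postnatal day 70). The double knockout (DKO) mice were Ift88fl/fl;Pkd2fl/fl;Pax8rtTA;TetO-cre, the Pkd2 KO mice were Pkd2fl/fl;Pax8rtTA;TetO-cre, and the controls were labelled only as wild type (WT), with no transgene named. Every group, WT included, was given doxycycline in the drinking water (2 mg/ml) for 2 weeks that began on postnatal day 28. Pax8-rtTA is known to drive the doxycycline-dependent Cre in kidney tubule cells, while vessels, interstitium and immune cells of the same kidney keep the floxed genes. The series design describes the replicates as biological. Mouse name prefixes differ: replicate 3 of the WT group and replicate 3 of the Pkd2 KO group each carry another prefix than the other mice of their group, and no prefix occurs in more than 1 group. In the DKO group, the name of replicate 3 has a hyphen after the prefix, which the other DKO names lack. That mouse was kept where mice of another prefix were left out. What the prefix or the hyphen stands for is not given in the sources used here.

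A dividing cell builds a bipolar spindle of microtubules, attaches each chromosome to it through a kinetochore, and holds back chromosome separation with a checkpoint until every kinetochore is attached. Cdc20 and Ube2c then help the anaphase-promoting complex to mark its substrates for destruction, and the central spindle proteins Prc1, Kif23 and Racgap1 direct the contractile ring that splits the cell. Most of these genes are transcribed in late S, G2 and M phase and repressed in resting cells. Pkd2 encodes polycystin-2, a channel of the primary cilium whose loss in tubule cells gives cystic kidneys, and Ift88 encodes a transport protein without which the cilium is not built.

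Late cell cycle promoters are known for a short element named the cell cycle genes homology region (CHR), read by the DREAM and MuvB complexes, and for CCAAT boxes bound by NF-Y. RefSeq promoter windows of 300 bases on GRCm38.p6, from 250 before to 50 after each gene's first listed start, were found for 38 members, with Casc5 under the name Knl1 and Diap3 under the name Diaph3. No window was found for Foxm1, Aurkb, Tpx2 and Kif20a. The word TTTGAA, searched on either strand, stood in 30 of the 38 windows (78.9%), against 12.2% of the windows of 11909 tested genes. Within 50 bases on each side of the start it stood in 26 of 38 members (68.4%), against 2.97% of the same genes. CCAAT, on either strand, stood in 25 of 38 whole windows (65.8%), against 38.1% of the windows of tested genes. TTTGAA or its variant TTCGAA together with CCAAT stood in 23 of 38 windows (60.5%), against 5.87%. The words were counted separately and were not required to be apart from each other.

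Stretches of 150 bases (100 before and 50 after the start) are shown for 8 members, 5′ to 3′ on the gene's own strand, with TTTGAA in capitals on either strand, and likewise its variant TTCGAA and the box CCAAT. Cdc20, Cenpf, Hmmr, Prc1 and Top2a are shown as changed members of the 5 roles, and Nuf2 as a changed member with none of these words in its window. Spc25 and Kif20b are shown as members that hold the word and are among those whose levels differed least between Pkd2 KO and WT. By fold of group means, Pkd2 KO over WT, Ube2c exceeded Cdc20 and Mki67 exceeded Top2a of their roles. Iqgap3, Cep55 and Diap3 exceeded Prc1, whose fold of 3.82 was just below the members' median of 3.84. None of these larger folds is shown by a stretch. Iqgap3 and Cep55 had no CCAAT in their windows, Diap3 had neither TTTGAA nor TTCGAA, and Mki67 had no TTTGAA within 50 bases of the start. The stretches lie at Cdc20 at chr4:118437294-118437443 on the minus strand, Cenpf at chr1:189688037-189688186 on the minus strand, Nuf2 at chr1:169531415-169531564 on the minus strand, Hmmr at chr11:40733388-40733537 on the minus strand, Prc1 at chr7:80294351-80294500 on the plus strand, Top2a at chr11:99024140-99024289 on the minus strand, Spc25 at chr2:69206164-69206313 on the minus strand and Kif20b at chr19:34922258-34922407 on the plus strand.
Cdc20: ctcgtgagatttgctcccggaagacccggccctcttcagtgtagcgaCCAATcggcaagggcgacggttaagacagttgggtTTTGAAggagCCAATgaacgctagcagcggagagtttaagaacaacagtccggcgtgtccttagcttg
Cenpf: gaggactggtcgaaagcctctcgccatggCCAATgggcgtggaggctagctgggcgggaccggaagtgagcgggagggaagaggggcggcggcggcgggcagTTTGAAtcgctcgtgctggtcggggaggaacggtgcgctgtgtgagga
Nuf2: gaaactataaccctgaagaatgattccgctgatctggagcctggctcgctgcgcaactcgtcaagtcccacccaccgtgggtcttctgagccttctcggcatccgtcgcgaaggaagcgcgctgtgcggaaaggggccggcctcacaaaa
Hmmr: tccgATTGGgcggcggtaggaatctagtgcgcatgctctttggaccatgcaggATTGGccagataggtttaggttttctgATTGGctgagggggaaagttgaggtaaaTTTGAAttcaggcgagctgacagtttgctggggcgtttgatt
Prc1: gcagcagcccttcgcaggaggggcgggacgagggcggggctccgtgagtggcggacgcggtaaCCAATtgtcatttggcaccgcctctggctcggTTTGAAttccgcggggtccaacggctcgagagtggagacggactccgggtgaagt
Top2a: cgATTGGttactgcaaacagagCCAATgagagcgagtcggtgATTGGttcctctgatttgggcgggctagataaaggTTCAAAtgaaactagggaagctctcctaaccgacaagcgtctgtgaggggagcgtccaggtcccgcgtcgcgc
Spc25: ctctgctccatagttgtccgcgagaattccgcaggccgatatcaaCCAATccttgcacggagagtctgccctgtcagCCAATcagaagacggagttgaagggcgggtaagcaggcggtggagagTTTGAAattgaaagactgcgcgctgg
Kif20b: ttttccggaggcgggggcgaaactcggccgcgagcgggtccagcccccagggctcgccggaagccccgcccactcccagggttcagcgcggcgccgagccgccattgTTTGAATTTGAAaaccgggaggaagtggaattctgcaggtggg
In Cdc20 the word began 18 bases before the start and lay between CCAAT boxes, and in Prc1 it began 5 bases before the start. In Cenpf it began at base 2 after the start, in Hmmr at base 8 and in Spc25 at base 24. Kif20b had the word at base 7 and again directly after it. A word of 5 or 6 bases is a match of letters in this window and not a measured binding site, and a window without one says nothing about which factors act on the gene.

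**Figure D1:**
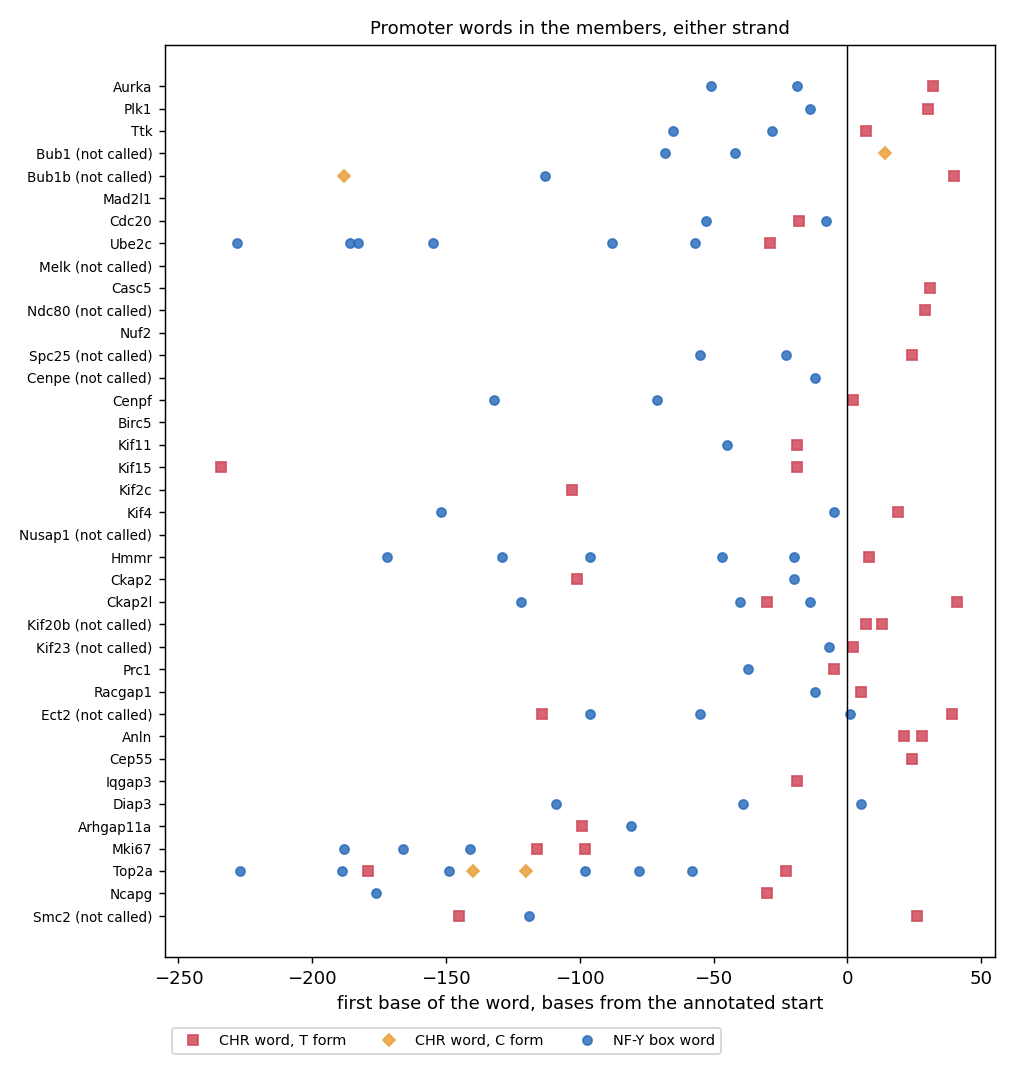
Position of each word's first base in bases from the annotated start (x axis, 0 is the start) for the 38 members with a window, 1 row per member. Red squares are TTTGAA, orange diamonds TTCGAA and blue circles CCAAT, and members not called higher in Pkd2 KO over WT are marked; red squares within 50 bases of the start occur in 26 of 38 members, in marked and unmarked rows alike.

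TTTGAA was found in members that passed the expression test and in members that did not, and their shares were not tested against each other. TTTGAA lay within 50 bases of the start in 19 of 27 members called higher in Pkd2 KO over WT (70.4%) and in 7 of 11 members not called (63.6%). In the whole window it stood in 23 of the 27 called members (85.2%) and in the same count of 7 of 11 not called (63.6%). Among the 12 uncalled members, only Aurkb had no window. Mad2l1, Melk, Nuf2, Cenpe, Birc5, Nusap1 and Diap3 had neither TTTGAA nor TTCGAA in their windows.

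Before the members, the deleted genes were checked against the labels. Pkd2 had 5181, 3777 and 5102 normalized counts in the 3 DKO kidneys, 4723, 5083 and 5549 in Pkd2 KO, and 13768, 14013 and 14505 in WT. Ift88 had 735, 691 and 831 in DKO, 1121, 1086 and 1214 in Pkd2 KO, and 1132, 1067 and 1056 in WT. Both genes followed the labels in every kidney, and RNA of both remained in the mutants. The libraries held 40454151 to 42874467 normalized counts each, and all 12 kidney tubule markers checked, such as Lrp2, Umod and Aqp2, were detected in every library. A normalized count is a read count per gene divided by a size factor of its library. Differences were tested in one limma model of the 3 groups on log2(normalized count + 1), over the 15740 genes whose mean reached 10, and a gene is called where its Benjamini-Hochberg adjusted two-sided p over all of these is below 0.05. The added 1 makes the log2 fold changes of low genes smaller than their folds of means. Means are given ± SD over 3 mice. In bulk kidney RNA, fewer cells that express a gene and less RNA per cell cannot be told apart.

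In Pkd2 KO kidneys, 30 of the 42 members were called higher than in WT, none was called lower and 12 were not called. By limma, 38 members were higher and none was lower at an unadjusted p below 0.05. Over all genes tested, 1.14% were called higher in this comparison, 1.25% lower and 2.4% in either direction. The members' log2 fold changes were all positive, between 0.18 and 2.85 with a median of 1.95, while the median over all genes tested was 0.00. As folds of group means they ran from 1.13 for Spc25 to 7.17 for Cenpf, with a median of 3.84, and 35 members were at least 2-fold higher. For 40 members, each Pkd2 KO kidney was above each WT kidney, a pattern seen in 12.4% of all genes. The exceptions were Kif20b and Ect2.

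With Ift88 deleted as well, 12 members were called lower in DKO than in Pkd2 KO kidneys, none was called higher and 30 were not called. By limma, 38 members were lower and none was higher at an unadjusted p below 0.05. Over all genes, 0.267% were called lower in this comparison, 0.127% higher and 0.394% in either direction. All 42 log2 fold changes were negative, from -2.05 to -0.03 with a median of -1.63, against a median of 0.00 over all genes tested. For 37 members, each DKO kidney was below each Pkd2 KO kidney, against 7.78% of all genes. The exceptions were Spc25, Cenpe, Nusap1, Kif20b and Ect2. The 12 called members were all among the 30 called in Pkd2 KO over WT. Both comparisons share the Pkd2 KO kidneys, so their values are not independent of each other.

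No member was called in DKO over WT by limma, with adjusted p-values of 0.296 to 0.977, against 0.229% of all genes called in either direction (0.0762% higher and 0.152% lower). At an unadjusted p below 0.05, 4 members were higher and none lower, namely Kif2c, Ube2c, Kif20a and Mki67. edgeR and DESeq2, run on 7 libraries, also called 0 members, and they called 10 and 111 of the 15740 genes. The log2 fold changes lay between -0.12 and 0.94 with a median of 0.31, and 39 of 42 were positive. Those signs rested partly on single kidneys: 28 of 42 were positive without DKO replicate 3, and 15 members turned sign in at least 1 of the 9 fits that left out 1 library. Only Kif2c and Kif20a had each DKO kidney above each WT kidney, a pattern seen in 9.1% of all genes. The uncalled comparison does not show that the levels were alike: for Kif2c the difference was 0.94 ± 0.31 (log2, SE) and for Mki67 0.71 ± 0.30.

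**Figure D2:**
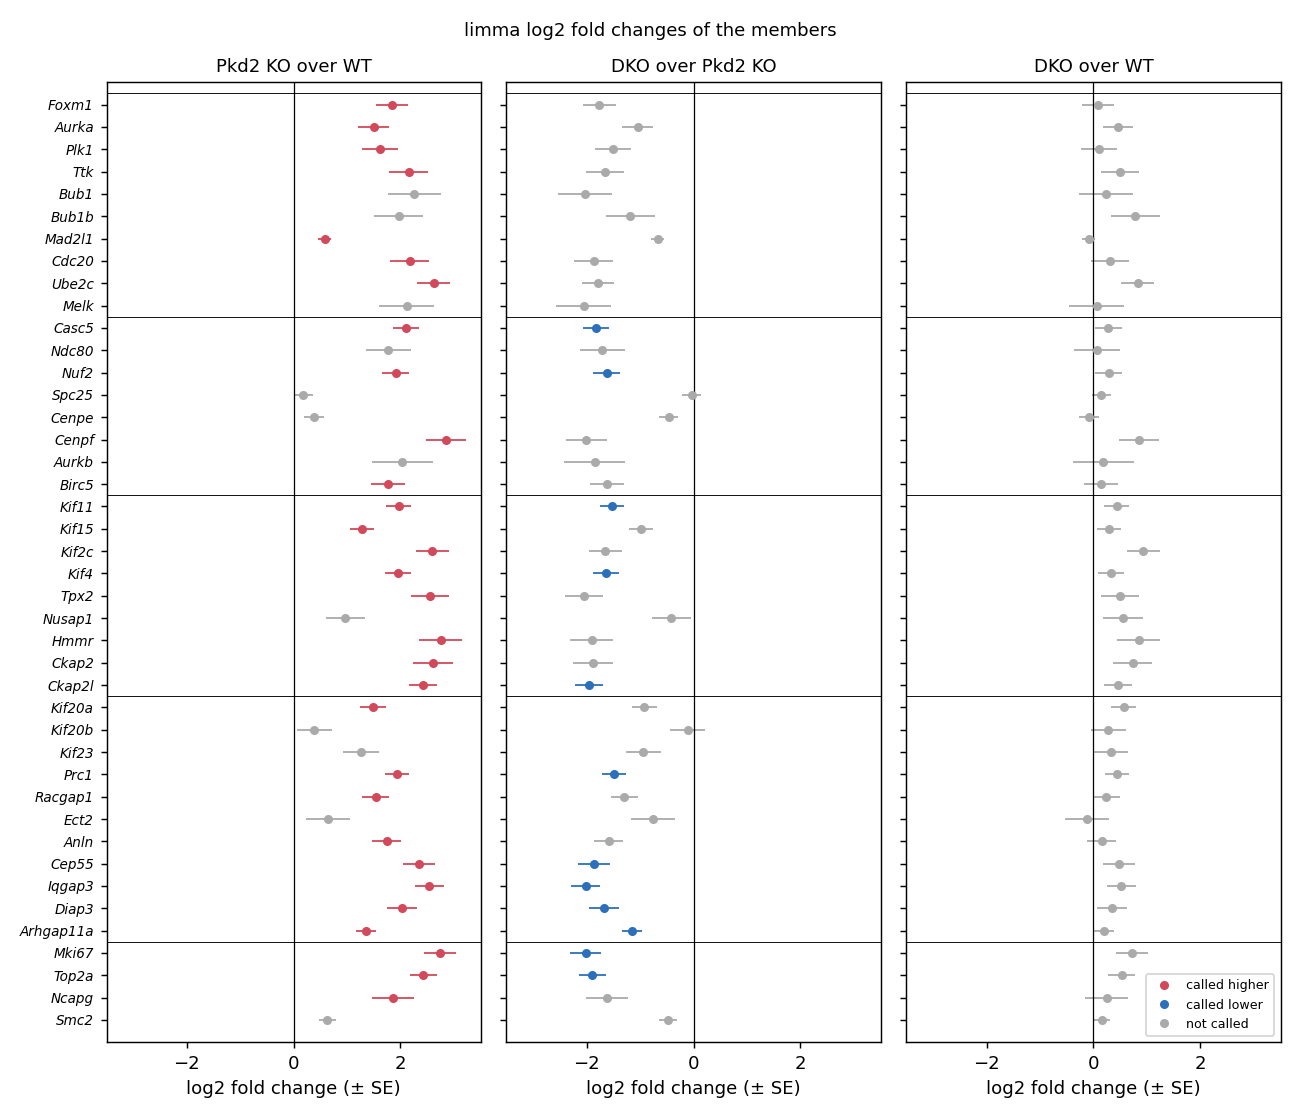
limma log2 fold changes with standard errors (x axes) of the 42 members, 1 row each and grouped by role, in Pkd2 KO over WT, DKO over Pkd2 KO and DKO over WT. Red points were called higher, blue points called lower and grey points not called: 30 red points stand in the first panel, 12 blue points in the second and only grey points in the third.

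Among the regulators, kinases and checkpoint genes, 7 of 10 were called higher in Pkd2 KO over WT and none was called in DKO over Pkd2 KO, although each DKO kidney lay below each Pkd2 KO kidney for all 10. Foxm1, the transcription factor that activates late cell cycle genes, averaged 74.2 ± 19.8 in DKO, 250.3 ± 40.7 in Pkd2 KO and 72.5 ± 30.7 in WT. Aurka, the centrosomal kinase of spindle assembly, averaged 55.0 ± 17.7 in DKO, 111 ± 20.3 in Pkd2 KO and 38.8 ± 7.85 in WT. Plk1, a kinase of mitotic entry and centrosome maturation, averaged 39.7 ± 18.0 in DKO, 108 ± 12.3 in Pkd2 KO and 35.9 ± 13.3 in WT. Ttk, the checkpoint kinase also called Mps1, averaged 15.8 ± 4.89 in DKO, 50.7 ± 10.5 in Pkd2 KO and 10.9 ± 3.76 in WT. Each of these 4 was called higher in Pkd2 KO over WT, with log2 fold changes of 1.50 (Aurka) to 2.15 (Ttk).

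Cdc20 and Ube2c had the largest folds of means among the regulators in Pkd2 KO over WT, 4.71 and 6.41. Cdc20, the activator of the anaphase-promoting complex, averaged 57.9 ± 27.6 in DKO, 208 ± 78.2 in Pkd2 KO and 44.2 ± 10.6 in WT. Ube2c, the ubiquitin-conjugating enzyme of that complex, had 21.4, 43.5 and 50.8 normalized counts in DKO, 114, 131 and 139 in Pkd2 KO, and 20.1, 21.4 and 18.5 in WT. DKO replicate 1 lay at the WT level, the other DKO kidneys above every WT kidney, and all Pkd2 KO kidneys far above both groups. Its log2 fold change was 2.62 ± 0.30 (SE) in Pkd2 KO over WT (limma adjusted p = 0.00518), and it was -1.79 ± 0.30 in DKO over Pkd2 KO (adjusted p = 0.0510).

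The checkpoint genes were less uniform. Mad2l1, which holds back Cdc20 until kinetochores are attached, had 146, 138 and 156 normalized counts in DKO, 214, 253 and 236 in Pkd2 KO, and 155, 148 and 165 in WT. The Pkd2 KO kidneys stood clear of the other 6, but the step was small, with a log2 fold change of 0.58 ± 0.12 (limma adjusted p = 0.0466), and the call was lost without any 1 of the 9 libraries. In DKO over Pkd2 KO it was -0.67 ± 0.12 (adjusted p = 0.0669). Bub1, a checkpoint kinase, averaged 14.9 ± 9.10 in DKO, 57.3 ± 5.87 in Pkd2 KO and 12.4 ± 6.99 in WT, and Bub1b, its relative in the checkpoint complex, 53.9 ± 28.6 in DKO, 114 ± 18.5 in Pkd2 KO and 31.7 ± 17.9 in WT. Melk, a kinase whose RNA marks cycling cells, averaged 15.6 ± 13.2 in DKO, 55.7 ± 9.40 in Pkd2 KO and 12.4 ± 3.91 in WT. These 3 were not called in Pkd2 KO over WT (adjusted p = 0.0529 for Bub1, 0.0635 for Bub1b and 0.0730 for Melk), with folds of means of 3.61 to 4.61 and wide spreads within groups.

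Of the 8 kinetochore and passenger complex genes, 4 were called higher in Pkd2 KO over WT (Casc5, Nuf2, Cenpf and Birc5), and 2 were called lower in DKO over Pkd2 KO (Casc5 and Nuf2). Cenpf, a large kinetochore protein that accumulates in G2, had 41.7, 92.4 and 115 normalized counts in DKO, 269, 381 and 289 in Pkd2 KO, and 61.3, 32.7 and 37.0 in WT. All Pkd2 KO kidneys were above all others, while DKO and WT kidneys overlapped through DKO replicate 1. Its log2 fold change of 2.85 ± 0.38 in Pkd2 KO over WT (limma adjusted p = 0.00846) was the highest of the 42 members, and it was -2.00 ± 0.38 in DKO over Pkd2 KO (adjusted p = 0.0697). Casc5, the scaffold that recruits checkpoint proteins to the kinetochore, averaged 40.4 ± 7.94 in DKO, 146 ± 29.7 in Pkd2 KO and 33.0 ± 6.16 in WT.

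The Ndc80 complex, the kinetochore's grip on microtubules, had 3 of its subunits here, with unlike values. Nuf2 averaged 23.7 ± 5.94 in DKO, 73.8 ± 2.57 in Pkd2 KO and 19.1 ± 3.70 in WT. Ndc80 itself averaged 15.9 ± 10.3 in DKO, 48.9 ± 8.03 in Pkd2 KO and 14.0 ± 4.98 in WT, and was not called in Pkd2 KO over WT (limma adjusted p = 0.0685). Spc25 had 466, 774 and 717 normalized counts in DKO, 625, 729.8 and 606 in Pkd2 KO, and 574, 554 and 599 in WT. Its DKO kidneys spanned the values of both other groups, and the Pkd2 KO kidneys lay only just above WT. The log2 fold change of Spc25 was 0.18 ± 0.18 in Pkd2 KO over WT (adjusted p = 0.634), the lowest of the 42 members.

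The other kinetochore and passenger genes fell between these. Cenpe, a kinesin that moves chromosomes to the spindle equator, averaged 141 ± 30.9 in DKO, 193 ± 25.7 in Pkd2 KO and 147 ± 8.19 in WT, and was not called (limma adjusted p = 0.308 in Pkd2 KO over WT). Aurkb, the kinase of the passenger complex, averaged 28.4 ± 19.9 in DKO, 88.5 ± 22.0 in Pkd2 KO and 21.9 ± 9.47 in WT, a 4.04-fold difference of means that did not pass the test (adjusted p = 0.103). Birc5, the survivin subunit of the same complex, averaged 46.04 ± 17.9 in DKO, 136 ± 17.6 in Pkd2 KO and 39.5 ± 7.89 in WT, and was called higher in Pkd2 KO over WT (adjusted p = 0.0279).

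**Figure D3:**
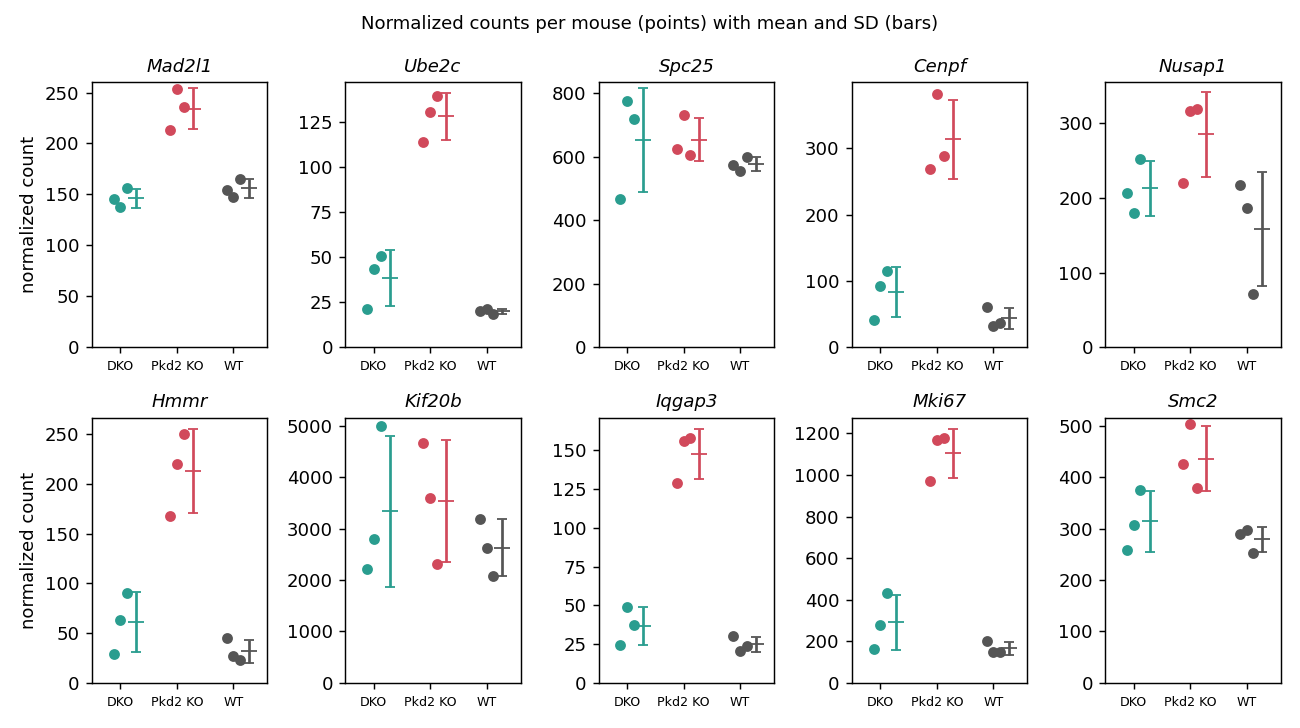
Normalized counts per mouse (points, y axes from 0) with the mean and SD of each group (bars beside them) for 10 members in DKO, Pkd2 KO and WT kidneys, named by rule as the most abundant, most changed or least changed of their role. Pkd2 KO points stand above all others for Ube2c, Cenpf, Hmmr, Iqgap3, Mki67, Mad2l1 and Smc2, and do not stand clear of the other groups for Spc25, Nusap1 and Kif20b.

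Of the 9 spindle motors and microtubule binders, 8 were called higher in Pkd2 KO over WT, and 3 of them (Kif11, Kif4 and Ckap2l) were called lower in DKO over Pkd2 KO. Hmmr, a microtubule-binding protein of the spindle poles, had 29.5, 63.4 and 90.1 normalized counts in DKO, 168, 221 and 251 in Pkd2 KO, and 45.2, 27.0 and 22.9 in WT. The Pkd2 KO kidneys were separate from all others, and the DKO and WT kidneys overlapped. Its log2 fold change was 2.75 ± 0.40 in Pkd2 KO over WT (limma adjusted p = 0.0130), a call lost without Pkd2 KO replicate 2 or WT replicate 2 (highest adjusted p = 0.0653), and -1.91 ± 0.40 in DKO over Pkd2 KO (adjusted p = 0.0969).

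The motors rose together in Pkd2 KO kidneys. Kif11, the motor that pushes spindle poles apart, averaged 81.1 ± 28.5 in DKO, 227 ± 16.3 in Pkd2 KO and 57.7 ± 7.45 in WT. Kif15, which assists Kif11 in that role, averaged 29.1 ± 2.24 in DKO, 58.6 ± 1.84 in Pkd2 KO and 24.05 ± 5.58 in WT. Kif2c, which takes microtubules apart at kinetochores, averaged 21.3 ± 6.85 in DKO, 67.3 ± 5.26 in Pkd2 KO and 10.6 ± 3.25 in WT. It had the largest DKO over WT fold of means of the members, 2.01, and was the only member of this role with every DKO kidney above every WT kidney. Kif4, a chromosome-bound motor, averaged 36.6 ± 8.82 in DKO, 115 ± 13.3 in Pkd2 KO and 28.9 ± 6.08 in WT.

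The microtubule binders without a motor had folds of means of 5.51 to 6.72 in Pkd2 KO over WT, Nusap1 apart. Tpx2, which activates Aurka on the spindle, averaged 56.7 ± 23.1 in DKO, 226 ± 44.8 in Pkd2 KO and 38.9 ± 14.1 in WT. Ckap2, a spindle-associated protein, averaged 33.3 ± 11.0 in DKO, 123 ± 32.2 in Pkd2 KO and 20.0 ± 8.95 in WT, and its relative Ckap2l 33.6 ± 8.84 in DKO, 131 ± 20.5 in Pkd2 KO and 23.9 ± 4.58 in WT. Nusap1, which bundles spindle microtubules, had 207, 179 and 251 normalized counts in DKO, 219, 316 and 318 in Pkd2 KO, and 217, 186 and 71.8 in WT. WT replicate 3 was the lowest of the 9 and the other WT kidneys came near Pkd2 KO replicate 1, and Nusap1 was not called (log2 fold change 0.97 ± 0.37, limma adjusted p = 0.214). Without WT replicate 3 the log2 fold change was 0.48 (adjusted p = 0.287), and over the 9 fits that left out 1 library it ran from 0.48 to 1.27.

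Of the 11 cytokinesis genes, 8 were called higher in Pkd2 KO over WT, and 5 were called lower in DKO over Pkd2 KO (Prc1, Cep55, Iqgap3, Diap3 and Arhgap11a). Iqgap3, a scaffold protein of the cell cortex, had 24.4, 48.9 and 37.4 normalized counts in DKO, 129, 156 and 158 in Pkd2 KO, and 30.1, 20.3 and 23.9 in WT. Its Pkd2 KO kidneys stood well above every other kidney, and DKO replicate 1 lay within the WT range. The log2 fold change was 2.54 ± 0.27 in Pkd2 KO over WT (limma adjusted p = 0.00402) and -2.02 ± 0.27 in DKO over Pkd2 KO (adjusted p = 0.0298).

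The central spindle and its partners showed the same order of groups. Prc1, which bundles the central spindle, averaged 104 ± 25.2 in DKO, 290.3 ± 40.2 in Pkd2 KO and 75.9 ± 16.0 in WT. Racgap1, a subunit of centralspindlin, averaged 78.8 ± 11.3 in DKO, 195 ± 24.6 in Pkd2 KO and 68.6 ± 21.4 in WT, and was called higher in Pkd2 KO over WT. Kif23, the motor subunit of centralspindlin, averaged 162 ± 63.7 in DKO, 298 ± 34.2 in Pkd2 KO and 130.2 ± 49.7 in WT, and was not called (limma adjusted p = 0.0867). Kif20a, a motor that carries the passenger complex to the midzone, averaged 94.2 ± 16.5 in DKO, 183 ± 56.2 in Pkd2 KO and 63.1 ± 7.77 in WT.

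The genes of the contractile ring and the final cut had the same order of group means. Anln, the ring scaffold anillin, averaged 78.5 ± 24.2 in DKO, 231 ± 39.4 in Pkd2 KO and 68.8 ± 14.5 in WT. Cep55, which brings the abscission machinery to the midbody, averaged 14.6 ± 3.84 in DKO, 55.4 ± 11.8 in Pkd2 KO and 9.97 ± 1.18 in WT. Diap3, a formin that builds actin filaments, averaged 22.1 ± 6.17 in DKO, 72.2 ± 15.9 in Pkd2 KO and 16.7 ± 1.43 in WT. Arhgap11a, a GTPase-activating protein for RhoA, averaged 150.4 ± 28.8 in DKO, 334 ± 54.0 in Pkd2 KO and 129.8 ± 15.8 in WT. All 4 were called higher in Pkd2 KO over WT, and all but Anln were called lower in DKO over Pkd2 KO (limma adjusted p = 0.0510 for Anln).

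Kif20b and Ect2 were the exceptions among the cytokinesis genes. Kif20b, a kinesin of the midzone and midbody, had 2208, 2800 and 4997 normalized counts in DKO, 4670, 3602 and 2304 in Pkd2 KO, and 3184, 2626 and 2078 in WT. The 3 groups overlapped throughout, and the log2 fold change was 0.39 ± 0.33 in Pkd2 KO over WT (limma adjusted p = 0.574) and -0.11 ± 0.33 in DKO over Pkd2 KO (adjusted p = 0.957). The DKO over Pkd2 KO value had the opposite sign without DKO replicate 1 (0.14) or without Pkd2 KO replicate 1 (0.12). Ect2, the exchange factor that activates RhoA at the equator, averaged 411 ± 221 in DKO, 634 ± 129.8 in Pkd2 KO and 427 ± 184 in WT, with an adjusted p of 0.450 by limma in Pkd2 KO over WT.

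Of the 4 genes of chromosome structure, Mki67, Top2a and Ncapg were called higher in Pkd2 KO over WT, and Mki67 and Top2a were called lower in DKO over Pkd2 KO. Mki67, the coat protein of mitotic chromosomes and a standard marker of proliferating cells, had 165, 277 and 431 normalized counts in DKO, 969, 1166 and 1177 in Pkd2 KO, and 202, 146 and 150.2 in WT. The Pkd2 KO kidneys held more than every other kidney, and DKO replicate 1 lay inside the WT range. Its log2 fold change was 2.73 ± 0.30 in Pkd2 KO over WT (limma adjusted p = 0.00402) and -2.02 ± 0.30 in DKO over Pkd2 KO (adjusted p = 0.0358). Top2a, the topoisomerase that untangles sister chromatids, averaged 181 ± 67.2 in DKO, 650.3 ± 95.2 in Pkd2 KO and 119.6 ± 14.1 in WT, and had the lowest adjusted p of the members in Pkd2 KO over WT (0.00338).

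The condensin genes differed in size of change. Ncapg, a subunit found only in condensin I, averaged 27.2 ± 14.5 in DKO, 78.7 ± 17.7 in Pkd2 KO and 20.9 ± 4.20 in WT (limma adjusted p = 0.0464 in Pkd2 KO over WT). Smc2, a core subunit of both condensins, had 258, 307 and 376 normalized counts in DKO, 426, 503 and 378 in Pkd2 KO, and 290.3, 296 and 251 in WT. The Pkd2 KO kidneys were the top 3, with DKO replicate 3 just under Pkd2 KO replicate 3. Smc2 was not called, with a log2 fold change of 0.63 ± 0.16 in Pkd2 KO over WT (adjusted p = 0.0828).

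**Figure D4:**
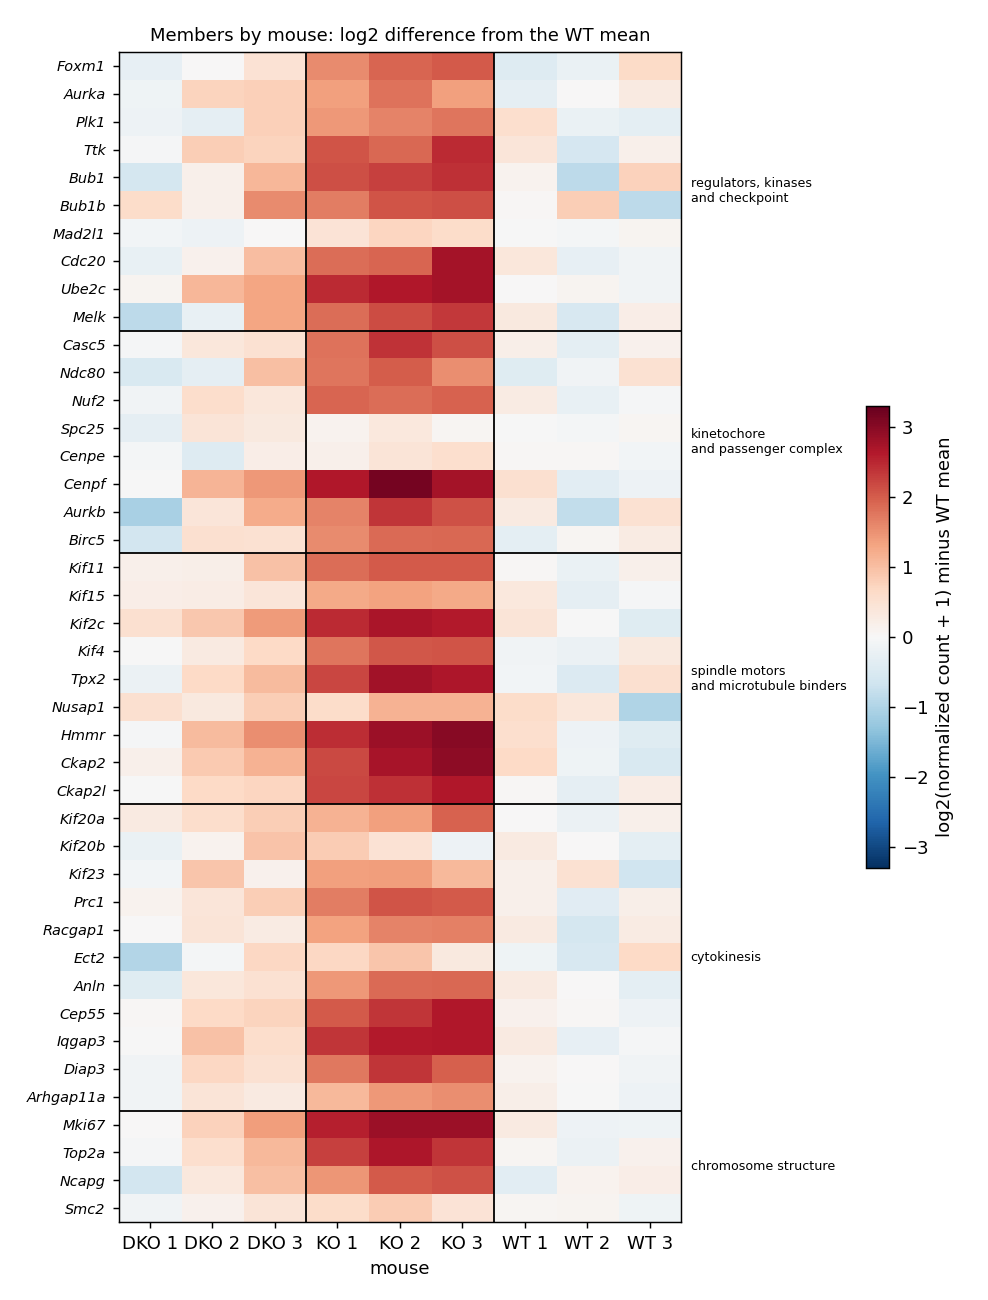
Log2(normalized count + 1) of each member (rows, by role) in each mouse (columns, DKO, Pkd2 KO and WT) minus the mean of the 3 WT mice. Red is above and blue below the WT mean; the Pkd2 KO columns are red for nearly every row, DKO 1 is near the WT colours and DKO 3 is redder than the other DKO columns.

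The DKO kidneys differed among themselves more than the Pkd2 KO kidneys did. The mean over the 42 members of the log2 difference from the WT mean was -0.13, 0.42 and 0.80 in DKO replicates 1, 2 and 3, then 1.62, 1.91 and 1.89 in Pkd2 KO and 0.14, -0.15 and 0.01 in WT. DKO replicate 1 was the lowest DKO kidney for 37 members and replicate 3 the highest for 33. The SD as a percent of the mean had a median over members of 32.7% in DKO, 16.2% in Pkd2 KO and 21.0% in WT. The highest DKO mean, in replicate 3, was still below the lowest Pkd2 KO mean. DKO replicate 3 also had the most Ift88 RNA of its group (831 normalized counts, against 735 in replicate 1 and 691 in replicate 2). Replicate 1 had more Ift88 RNA than replicate 2 and the lower member mean. The summed lymphocyte markers were also highest in DKO replicate 3 (351, against 181 and 111). So were its macrophage and fibroblast sums, but not its erythroid, endothelial or kidney tubule sums. Whether any of these bears on the members' level in that kidney was not tested.

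Of the excess of Pkd2 KO over WT, little remained in DKO for most members. The share of that excess left in DKO (DKO minus WT means over Pkd2 KO minus WT means) had a median of 10.1%, and it was under 25% for 37 members. The median was 18.2% without DKO replicate 1 and 6.12% without DKO replicate 3, with 32 and 39 members under 25%. For Mki67 the share was 13.3%, against 20.1% without DKO replicate 1 and 5.85% without DKO replicate 3. It was above 50% for Spc25 (98.2%) and Kif20b (78.7%), which had little excess relative to their level to begin with. For Mad2l1 (-12.0%), Cenpe (-13.1%) and Ect2 (-7.56%) the DKO mean was below the WT mean. These shares rest on means of 3 mice and carry no test.

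The members with the most RNA in WT kidneys were among those that differed least. Per kilobase of merged exons (GENCODE M21, which may not be the annotation the authors used), the highest WT levels were those of Kif20b (378 normalized counts per kilobase), Spc25 (181), Ect2 (79.2), Smc2 (51.0) and Nusap1 (39.0), against a median of 7.71 over the members and 2.16 for Ndc80, the lowest. None of those 5 was called in Pkd2 KO over WT. The next 3 by level, Arhgap11a (24.3), Cdc20 (23.7) and Mad2l1 (18.6), were all called higher, with folds of means of 2.57, 4.71 and 1.50. A small fold did not always mean a small gain in counts. Pkd2 KO minus WT means came to 897 for Kif20b, 208 for Ect2, 156 for Smc2 and 77.7 for Spc25, against a median gain of 108 over the members and 938 for Mki67.

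**Figure D5:**
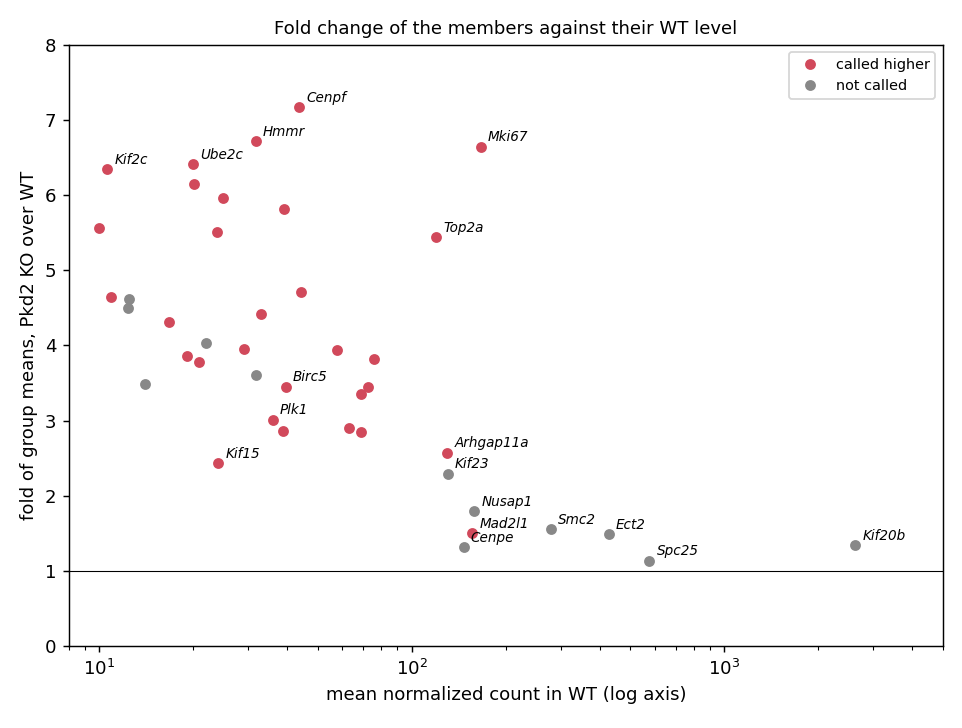
Fold of group means of Pkd2 KO over WT (y axis, the line marks 1) against the mean normalized count in WT (x axis, log scale) for the 42 members. Red points were called higher and grey points not; members with WT means above that of Mki67 (Smc2, Ect2, Spc25 and Kif20b) have folds of 1.13 to 1.56, while Mki67 itself reaches 6.64.

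A broader list of other mitotic genes, sorted into the same roles, showed the same direction in fewer of its members. Of 106 tested, 25 were called higher in Pkd2 KO over WT and none lower (median log2 fold change 0.40), against 1.14% and 1.25% of all genes. In DKO over Pkd2 KO, 5 were called lower and none higher (median -0.23), against 0.267% and 0.127% of all genes. None was called in DKO over WT by limma, against 0.229% of all genes. There 7 were higher and 1 was lower at an unadjusted p below 0.05. In DKO over WT, edgeR on 7 libraries called 0 and DESeq2 1. By role, the calls in Pkd2 KO over WT were 5 of 20 regulators, 10 of 32 kinetochore genes, 7 of 26 spindle genes, 0 of 11 cytokinesis genes and 3 of 17 genes of chromosome structure. Among the 11 cytokinesis genes, 2 were higher and 1 was lower at an unadjusted p below 0.05. Their 0 calls are near the 1.14% of all genes and are not read as a difference between roles. Pbk, a mitotic kinase, averaged 50.9 ± 16.9 in DKO, 153 ± 19.9 in Pkd2 KO and 30.6 ± 11.7 in WT. Aspm, a spindle pole protein, averaged 56.6 ± 23.9 in DKO, 184 ± 33.0 in Pkd2 KO and 40.8 ± 15.7 in WT. Knstrn, a kinetochore and spindle adaptor, averaged 48.5 ± 11.5 in DKO, 164 ± 36.2 in Pkd2 KO and 50.7 ± 18.0 in WT, and was among the 5 called lower in DKO over Pkd2 KO (limma adjusted p = 0.0496). At the other end, Haus1, a subunit of the augmin complex, averaged 229 ± 7.13 in DKO, 205 ± 43.4 in Pkd2 KO and 247 ± 15.7 in WT. Chmp4b, an ESCRT-III subunit with roles outside mitosis, averaged 3138 ± 95.7 in DKO, 3080 ± 63.6 in Pkd2 KO and 3504 ± 263 in WT. Cenpq, a centromere protein, averaged 195 ± 45.3 in DKO, 192 ± 17.3 in Pkd2 KO and 221 ± 62.1 in WT, and none of these 3 was called. Hjurp had another pattern, with means of 1852 ± 58.8 in DKO, 1997 ± 506 in Pkd2 KO and 817 ± 274 in WT. It was called higher in Pkd2 KO over WT (limma adjusted p = 0.0376), but its log2 fold change in DKO over Pkd2 KO was -0.08. In DKO over WT its value of 1.24 ± 0.26 (SE) was the highest of this list (adjusted p = 0.128).

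Markers of other cells moved with the members in part. The summed normalized counts of 10 macrophage markers were 5211, 4977 and 6010 in DKO, 8597, 8319 and 6372 in Pkd2 KO, and 5454, 5962 and 6231 in WT. Pkd2 KO replicates 1 and 2 were the highest, and replicate 3 was just above the highest WT kidney. The sums of 9 fibroblast markers were 6487, 7466 and 8093 in DKO, 16291, 16953 and 10535 in Pkd2 KO, and 9390, 8096 and 11806 in WT. Here Pkd2 KO replicate 3 lay inside the WT range. In that kidney the mean log2 difference of the members from the WT mean was 1.89, against 1.62 in Pkd2 KO replicate 1 and 1.91 in replicate 2. None of the 10 macrophage markers was called in Pkd2 KO over WT by limma, and edgeR and DESeq2 called 0. At an unadjusted p below 0.05 by limma, 5 were higher and 1 was lower. The lower marker had a log2 fold change of -0.77, with each Pkd2 KO kidney below each WT kidney. None of the 9 fibroblast markers was called there by limma either, where 3 had an unadjusted p below 0.05, edgeR called 0 and DESeq2 1. In DKO over Pkd2 KO, limma called Col1a1 lower and no other marker of these lists, with 6 of each at an unadjusted p below 0.05. DESeq2 called 1 macrophage and 2 fibroblast markers lower there, and edgeR 0. These counts depended on Pkd2 KO replicate 3. Without it, limma called 2 macrophage and 2 fibroblast markers higher in Pkd2 KO over WT, and 2 of each lower in DKO over Pkd2 KO. Without the mice of the other name prefix, it called 2 macrophage and 3 fibroblast markers higher in Pkd2 KO over WT, and 4 of each lower in DKO over Pkd2 KO. Calls over all genes rose too. They numbered 377 in Pkd2 KO over WT and 62 in DKO over Pkd2 KO with all 9 libraries. Without Pkd2 KO replicate 3 they numbered 396 and 155, and without the mice of the other name prefix 513 and 311. No macrophage or fibroblast marker was at 0 in any library. Lymphocyte markers summed to 111 to 351 in DKO, 165 to 415 in Pkd2 KO and 131 to 198 in WT, and endothelial markers to 14130 to 15735 in DKO, 13968 to 16668 in Pkd2 KO and 15464 to 16898 in WT. Erythroid markers summed to 329 to 638 in DKO, 517 to 6471 in Pkd2 KO and 608 to 1243 in WT, with the highest value in Pkd2 KO replicate 3. The summed counts of the 12 kidney tubule markers went the other way in Pkd2 KO. They were 733084, 834916 and 720270 in DKO, 704809, 715775 and 683162 in Pkd2 KO, and 848713, 799482 and 840537 in WT. Each Pkd2 KO sum was below every other kidney's, but such sums weigh the most abundant markers most. By gene, 9 of the 12 log2 fold changes in Pkd2 KO over WT were negative and 3 positive. limma called 3 of the 12 lower (Umod, Slc12a1 and Calb1), against 1.25% of all genes. What part these cells have in the members' levels was not tested.

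How far the calls rest on single kidneys differed between comparisons. In Pkd2 KO over WT, 13 of the 30 calls held in every fit that left out 1 library, namely Ube2c, Casc5, Nuf2, Cenpf, Kif11, Kif2c, Kif4, Ckap2l, Prc1, Cep55, Iqgap3, Mki67 and Top2a. The count fell to 13 without Pkd2 KO replicate 2 and to 14 without WT replicate 2. In these fits 81 and 70 of all genes were called, against 377 with all 9 libraries. In DKO over Pkd2 KO, none of the 12 calls held in every such fit. The count was 0 without Pkd2 KO replicate 1 or 2, 1 without DKO replicate 1 or 2, 4 without WT replicate 1, and 6 without WT replicate 2 or Pkd2 KO replicate 3. Over all genes, 8 were called without Pkd2 KO replicate 1 and 10 without Pkd2 KO replicate 2, against 62 with all 9 libraries. Without the mice of the other name prefix in WT and Pkd2 KO, 20 members were called higher in Pkd2 KO over WT and 9 lower in DKO over Pkd2 KO. Calls over all genes rose there, to 513 and 311. On the 7 libraries with recovered reads, edgeR called 0 members in both comparisons (38 and 36 had an unadjusted p below 0.05) and DESeq2 called 26 and 21. Of all 15740 genes, edgeR called only 11 and 10 there, and DESeq2 296 and 152.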

How the data were processed

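Poly(A) RNA-seq of 9 mouse kidneys was used, 3 per group, grouped by the sample labels. The submitters' processing notes name STAR 2.5.0 as a tool, then HTSeq 0.6.1, and DESeq2 without a version. The values deposited by the authors are a signal, gene counts divided by a size factor for each library. The sources used here give neither genome build nor annotation nor strand setting, so reads of overlapping or antisense partners (Nusap1 and Oip5, Cdc20 and Elovl1, Prc1 and Rccd1 overlap in GENCODE M21) may not be separated. Once a column was divided by what 1 read is worth in it, 100% of its values were whole within 0.05. In WT replicate 1 and Pkd2 KO replicate 1 that value lies too near 1 to show that scaling was undone, so count tests used the other 7 libraries (37056843 to 47314829 reads).

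limma 3.58.1 in R 4.3.3 was fitted to log2(normalized count + 1) of all 9 libraries, with the group means as terms, a trend of variance with intensity and no replicate block, over the 15740 genes whose mean reached 10. It was also run on simulated data drawn with its own variances, with changes placed in genes of a mean above 50. That simulation cannot show how the fit handles outlying kidneys or changed genes of lower mean. Alternatives were edgeR 4.0.16, DESeq2 1.42.0, other pseudocounts, filters, scalings and weights, a replicate block, and leaving out each library. limma on the 7 libraries, and leaving out each library for the signs of all members and for the share of the Pkd2 KO excess left in DKO, were added after seeing the data. The members and lists were chosen with earlier results of these data known, so no p-value adjusted over a list is given.

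All 42 members are named. Values of each kidney are given for the most abundant, most changed and least changed member (Pkd2 KO over WT) of each role, and for Pkd2 and Ift88. Other mitotic genes are named for the 3 highest and 3 lowest log2 fold changes (signed, Pkd2 KO over WT) among those with a mean of at least 50. Hjurp is named besides, as the highest of that list in DKO over WT. Should mice of the same name prefix be relatives, p-values are too small. Reads carry no molecular identifiers. With a single library per mouse, the SD and SE hold differences between mice together with those between library preparations.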

Additional observations from a re-analysis of the deposited data

How the results depend on the processing

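The call counts depended on the setting more than the directions did. Members called in Pkd2 KO over WT (30) numbered 13 to 33 when 1 library was left out, and members called in DKO over Pkd2 KO (12) numbered 0 to 10. Against a log2 fold change of at least 1 both counts were 0, and over all genes 7 and 4 were called. On the 7 libraries with recovered reads both were 0 by limma (an alternative added after seeing the data) and 0 by edgeR, with lowest adjusted p-values of 0.0680 and 0.0826 in Pkd2 KO over WT and 0.135 and 0.118 in DKO over Pkd2 KO, and these fits have fewer libraries. DESeq2 called 26 and 21. Over all genes, limma on these libraries called 13 and 11, edgeR 11 and 10, and DESeq2 296 and 152. Members called in DKO over Pkd2 KO numbered 2 with quantile normalization (0.197% of all genes called), 30 with array quality weights (3.9%) and 0 with only the 2 groups compared (0.165%), against 0.394% of all genes as reported, and the cause was not tested. No member was called in DKO over WT under any setting run. The labels state no pairing by replicate number. The correlations of same-numbered deviations were low, which does not exclude a pairing: 0.06, -0.08 and 0.05 in Pkd2 KO over WT, -0.08, -0.14 and -0.14 in DKO over Pkd2 KO, and 0.21, 0.02 and 0.11 in DKO over WT. With the replicate block, 26, 1 and 0 members were called in these comparisons, and 217, 15 and 20 of all genes. Among the 10 members given per kidney, the sign of the log2 fold change turned in DKO over Pkd2 KO for Spc25 without DKO replicate 1 (0.19) or Pkd2 KO replicate 2 (0.05; from -0.17 to 0.19 over fits without 1 library), and for Kif20b without DKO replicate 1 (0.14), without Pkd2 KO replicate 1 (0.12; from -0.44 to 0.14), and on the 7 libraries (0.12 by limma, 0.17 by edgeR, 0.17 by DESeq2). In DKO over WT it turned for Kif20b without DKO replicate 3 (-0.059, the lowest of the fits without 1 library, the highest being 0.53). Over these 10 members in 3 comparisons and the settings run, 672 values kept direction and side of the threshold, 58 lost the threshold, 12 passed it and 8 changed sign. Over all 42 members, leaving out 1 library turned the sign for 0 in Pkd2 KO over WT, 2 in DKO over Pkd2 KO and 15 in DKO over WT. With 3 mice per group, small differences such as those of Spc25 are below what these data resolve.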
